A study of Mus musculus with 12 samples.

Results

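Integrins are the adhesion receptors with which macrophages leave the blood, grip the matrix of injured tissue and take up particles and dying cells. The mRNA of 10 integrin subunit genes, Itgam, Itgax, Itgal, Itgb2, Itgav, Itgb3, Itgb5, Itga4, Itgb1 and Itgb7, was followed in macrophages of ischemic mouse muscle. The genes were chosen by symbol, and each symbol matched 1 Ensembl gene ID among the 55414 in the count table. RNA-seq was made in 12 libraries from C57BL6J wild type males, 3 for each of 4 days after the muscle was made ischemic by ligating the femoral artery (hindlimb ischemia). These days are written as 1, 2, 4 and 7 dpi (days post-injury). The cells came from digested calf muscle of the ischemic limb and were sorted as t-CD45+CD11b+F4/80+CD64+. Here t-CD45 marks all immune cells of the digested muscle, those that had infiltrated it and those still in the circulation. No uninjured muscle was included, and how many mice gave cells to each library is not given in the sources used here. P values then measure the spread between these libraries, which may be technical.

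Every integrin is a pair of an alpha and a beta chain. The beta2 chain (Itgb2, CD18) is made by leukocytes. Among others, it pairs with alphaL (Itgal, LFA-1), alphaM (Itgam, CD11b, Mac-1) or alphaX (Itgax, CD11c) to bind ICAMs, complement fragments and fibrinogen. The alphaV chain (Itgav) pairs with beta3, beta5 or beta1 and binds vitronectin, osteopontin and MFG-E8, the protein that bridges dying cells to phagocytes. The alpha4 chain (Itga4) pairs with beta1 (VLA-4) to bind VCAM-1 and fibronectin, and with beta7 (Itgb7) to bind MAdCAM-1. The CD11b protein was itself part of the sort, so every cell in these libraries was chosen for carrying the Itgam product on its surface.

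Levels are given as CPM, the counts scaled to library size and TMM factors, and levels of different genes are compared only per kb of exonic length. Changes are log2 fold changes (log2FC) from the edgeR quasi-likelihood fit of all 14310 genes tested, with the standard error (SE). A gene passed at a false discovery rate (FDR) under 0.05 and was a differentially expressed gene (DEG) where its absolute log2FC was also above 1. Total counts were 19528316 to 33599472 per library, of which 1 gene without a symbol, ENSMUSG00000119584, took 52.9% to 55.7% at 1 dpi, 40.3% to 49.7% at 2 and 4 dpi and 14.8% to 30.1% at 7 dpi, which left 8992759 to 18581365. Markers of macrophages were present in every library, with a summed level of 8058 to 16926 CPM and none of the 10 markers at 0. In bulk RNA, a smaller share of cells that express a gene and less RNA of that gene per cell cannot be told apart.

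Of the 10 subunits, 8 passed the test of any change over the 4 time points, beside 61.5% of all genes tested. Itgam, Itgb2 and Itgb7 fell over the course, Itgax and Itga4 rose, Itgal fell and then rose, and Itgav rose from 1 to 2 dpi. Itgb5 passed the test of any change (FDR 0.0381) but no single transition, and Itgb3 (FDR 0.451) and Itgb1 (FDR 0.104) did not pass. From 1 to 2 dpi, 3 members passed, 1 higher and 2 lower, beside 6.89% of all genes higher and 5.6% lower. From 2 to 4 dpi, 5 passed, 3 higher and 2 lower, beside 10.8% and 8.7%. From 4 to 7 dpi, 1 member passed, lower, and none was higher, beside 14.6% of all genes lower and 10.9% higher. Between 1 and 7 dpi, 5 passed, 2 higher and 3 lower, beside 25% and 23.3%.

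DEGs numbered 2 of 10 from 1 to 2 dpi, where 9.06% of all genes were DEGs, 4 from 2 to 4 dpi (11.9% of all genes), 1 from 4 to 7 dpi (12.6%) and 5 between 1 and 7 dpi (33.7%). The libraries of both time points did not overlap for 8 of 10 members from 1 to 2 dpi, beside 39.4% of all genes, for 7 from 2 to 4 dpi (44.2%), for 1 from 4 to 7 dpi (40%) and for 6 between 1 and 7 dpi (55.9%). Median log2FC over the 10 members was -0.45, -0.07 and -0.26 in the 3 successive transitions, and over all genes it was 0.01, 0.04 and -0.03. Successive transitions share the libraries of the time point between them.

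**Figure D1:**
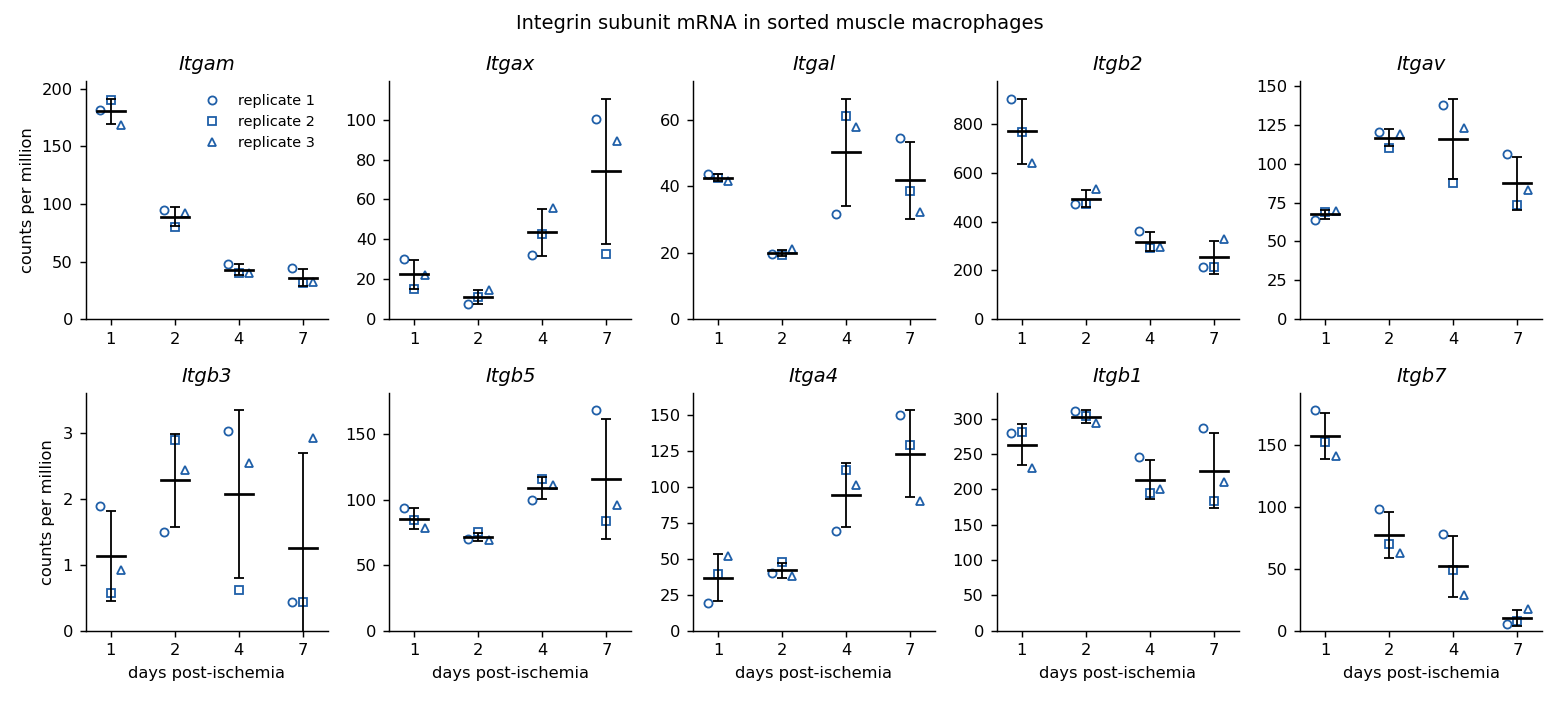
Level of each integrin subunit in CPM (vertical axes, each starting at 0) against days post-injury, with 1 open symbol per library and the mean with its SD (n = 3) as black lines. Itgam falls from 169 to 191 CPM at 1 dpi to 31.1 to 44.3 at 7 dpi, Itgb7 falls to 5.32 to 17.4, and Itga4 rises to 90.0 to 150 CPM.

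The 10 subunits were made at very different levels. Per kb of exonic length, Itgb2 was the highest at every time point, at 252 ± 43.4 CPM per kb at 1 dpi and 82.9 ± 21.6 at 7 dpi (SD, n = 3), and its libraries lay above those of every other member at each time point. Itgb1 came next at 64.5 ± 7.13 at 1 dpi and 55.5 ± 13.1 at 7 dpi, though its 1 dpi libraries overlapped those of Itgb7 (56.8 ± 6.82), and its 7 dpi libraries those of Itgb5 (32.6 ± 12.9). Itgb3 was the lowest throughout, at 0.191 to 0.386 CPM per kb as time point means. The 4 alpha chains other than Itgam held between 2.30 and 15.4 CPM per kb as time point means, and neighbours in their order mostly overlapped.

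The place of Itgam in that order depends on its length. In the annotation, 3450 of its 5024 exonic bases also belong to Gm49368, a gene on the same strand, and Gm49368 has 4 counts in total over the 12 libraries. If reads in shared exons were given to neither gene, which remains unknown, the remaining 1574 bases are the right length. Itgam then ranks second at 1 dpi, at 115 ± 7.00 CPM per kb, and after Itgb1 and Itgb7 with the whole length, at 35.9 ± 2.195. The fold changes of Itgam between time points do not depend on this choice. Itga4 shares 1124 bases with Cerkl and Itgav 634 with Gm13684, both on the opposite strand, and the library protocol does not keep the strand.

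Sequence before the transcription start was looked at for all members but Itgal, Itgb2 and Itgb3, for which no promoter window was found. RefSeq promoter windows (GRCm38.p6) were found for 7 of the 10 members, and 250 bases before each start were searched on both strands for GAGGAA (the core of PU.1 sites, a main myeloid factor), TGANTCA (AP-1), GGGCGG (the GC box) and TATAAA (the TATA box). These letters occur in 23.3%, 6.75%, 32.7% and 12.4% of all 32851 promoters of that length. The 3 stretches of Itgam, which fell, and those of Itgax and Itga4, which rose, are shown with the match in capitals, 5′ to 3′ on the strand of the gene.
Itgam, GAGGAA at 84 to 79 bases before the start, chr7:128062544-128062573, + strand: tgttttctcccgGAGGAAggctacagaggg
Itgam, GAGGAA read on the other strand at 15 to 10 bases before the start, chr7:128062610-128062639, + strand: gtctctcatagctttTTCCTCatacttctc
Itgam, GGGCGG read on the other strand at 47 to 42 bases before the start, chr7:128062581-128062610, + strand: cttgtagagcctCCGCCCtctttctttgag
Itgax, TGANTCA at 56 to 50 bases before the start, chr7:128129483-128129512, + strand: cccacctcctcTGAGTCAcgctgacaactt
Itga4, GGGCGG at 114 to 109 bases before the start, chr2:79255300-79255329, + strand: acagctgctgcgGGGCGGggatggggatcg
Itgax was the only member among the 7 with the TGANTCA letters, and neither Itgax nor Itga4 had GAGGAA in the window. Itgav, which rose from 1 to 2 dpi, had GAGGAA at 2 places and Itgb1, which passed in no transition, at 1. Itgb5 and Itgb1, neither of which passed in a transition, also had GGGCGG in the window. No listed motif was found in the Itgb7 window, and no member had TATAAA. A match describes the letters of the reference, and no binding was measured here.

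Itgam, the alpha chain of Mac-1, fell at both early transitions. Its level was 182, 191 and 169 CPM in the 3 libraries of 1 dpi, and 95.02, 79.6 and 92.0 at 2 dpi. It was 48.3, 40.4 and 40.3 CPM at 4 dpi and 44.3, 31.1 and 32.2 at 7 dpi. The libraries of 1, 2 and 4 dpi did not overlap, and those of 4 and 7 dpi did. Itgam fell by 1.02 on the log2 scale from 1 to 2 dpi (SE 0.18, edgeR FDR 0.00134) and by 1.05 from 2 to 4 dpi (SE 0.18, edgeR FDR 0.000786). The change from 4 to 7 dpi was -0.26 (95% interval -0.64 to 0.11, edgeR FDR 0.286). Between 1 and 7 dpi, Itgam mRNA was 5.03-fold lower (edgeR FDR 1.71e-07), in cells that were sorted for its protein at every time point.

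Itgax, the CD11c chain, which is best known from dendritic cells and also marks some tissue macrophages, went the other way. It was at 30.0, 15.3 and 22.2 CPM at 1 dpi and lower at 7.66, 11.1 and 14.5 CPM at 2 dpi. The level was 32.1, 42.9 and 55.8 CPM at 4 dpi, and 101, 32.6 and 89.2 at 7 dpi. All 3 libraries of 4 dpi lay above all 6 of the earlier time points. The rise from 2 to 4 dpi was 1.98 on the log2 scale (SE 0.37, edgeR FDR 0.00147), a 3.93-fold increase. The difference from 1 to 2 dpi was -1.02 with no overlap of libraries (95% interval -1.78 to -0.25) and did not pass (edgeR FDR 0.0784), but it did when only these 6 libraries were fitted (edgeR FDR 0.0149). From 4 to 7 dpi the log2FC was 0.77 (edgeR FDR 0.117), with 7 dpi replicate 2 at the level of the lowest 4 dpi library; without that replicate it was 1.14 (edgeR FDR 0.0178). Between 1 and 7 dpi Itgax was 3.31-fold higher (edgeR FDR 0.000968).

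Markers of dendritic cells were read beside Itgax. Of the 10 on the list, all were tested. From 2 to 4 dpi 5 passed as higher and none as lower, beside 10.8% and 8.7% of all genes. Between 1 and 7 dpi 7 passed as higher and none as lower, beside 25% and 23.3%. The summed level of the 10 markers was 13.6 to 20.8 CPM at 1 dpi, 11.8 to 15.5 at 2 dpi and 16.2 to 24.2 at 4 dpi. At 7 dpi it was 27.7, 59.2 and 31.3 CPM in replicates 1 to 3, so replicate 2, with the lowest Itgax of that time point, had the highest marker sum. The defining markers Flt3 and Zbtb46 averaged 1.52 and 2.72 CPM at 7 dpi. From 2 to 4 dpi, where Itgax rose, Dpp4, Batf3, Flt3 and Clec9a passed (edgeR FDR 0.00566, 0.00894, 0.0101 and 0.0135). Siglech, named after its values were seen, also passed (edgeR FDR 0.0257), with overlapping libraries. Means of Clec9a and Siglech were 0.025 and 0.0239 CPM at 2 dpi and 0.540 and 0.551 at 4 dpi. Zbtb46, Cd209a and Ccr7 had positive log2FC values that did not pass. Xcr1 and Fscn1 had log2FC values of -0.15 and -0.18 (edgeR FDR 0.891 and 0.754). Between 1 and 7 dpi Xcr1 was at -1.41 (edgeR FDR 0.0678). No marker of the list was at 0 in any library of 4 or 7 dpi. Their part in the rise of Itgax was not tested.

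Itgal, the alpha chain of LFA-1, dropped and recovered. Its 3 libraries were at 43.7, 42.4 and 41.7 CPM at 1 dpi and at 19.7, 19.2 and 21.0 at 2 dpi. They were at 31.6, 61.1 and 57.9 CPM at 4 dpi and at 54.7, 38.6 and 32.1 at 7 dpi. The 2 dpi libraries lay below all 9 others. Itgal fell by 1.09 from 1 to 2 dpi (SE 0.24, edgeR FDR 0.00607) and rose by 1.33 from 2 to 4 dpi (SE 0.24, edgeR FDR 0.0011). The difference between 7 and 1 dpi was -0.03, with a 95% interval from -0.52 to 0.47.

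Itgb2, the shared beta chain of these 3 alpha chains, was lower at 7 than at 1 dpi. It was at 904, 768 and 639 CPM at 1 dpi and at 472, 474 and 533 at 2 dpi. It was at 361, 293 and 297 CPM at 4 dpi and at 215, 215 and 329 at 7 dpi. Libraries of 1, 2 and 4 dpi stood apart in falling order, and those of 4 and 7 dpi overlapped. The log2FC was -0.64 from 1 to 2 dpi (SE 0.21, edgeR FDR 0.0551) and -0.64 from 2 to 4 dpi (SE 0.21, edgeR FDR 0.0431), so only the second passed. The first passed in 8 of 22 alternatives, among them DESeq2 (FDR 0.00689), the fit of the 6 libraries alone (edgeR FDR 0.00392) and the fits without any 1 of the 7 dpi libraries. The second failed to pass in 10 of the 22, among them the fits without any 1 of the libraries of 1 and 2 dpi or without 4 dpi replicates 2 or 3 (edgeR FDR up to 0.172). Without 7 dpi replicate 3, the fall from 4 to 7 dpi also passed (log2FC -0.56, edgeR FDR 0.0396). Between 1 and 7 dpi Itgb2 fell by 1.61 (SE 0.21, edgeR FDR 1.95e-05), which made it 3.04-fold lower.

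**Figure D2:**
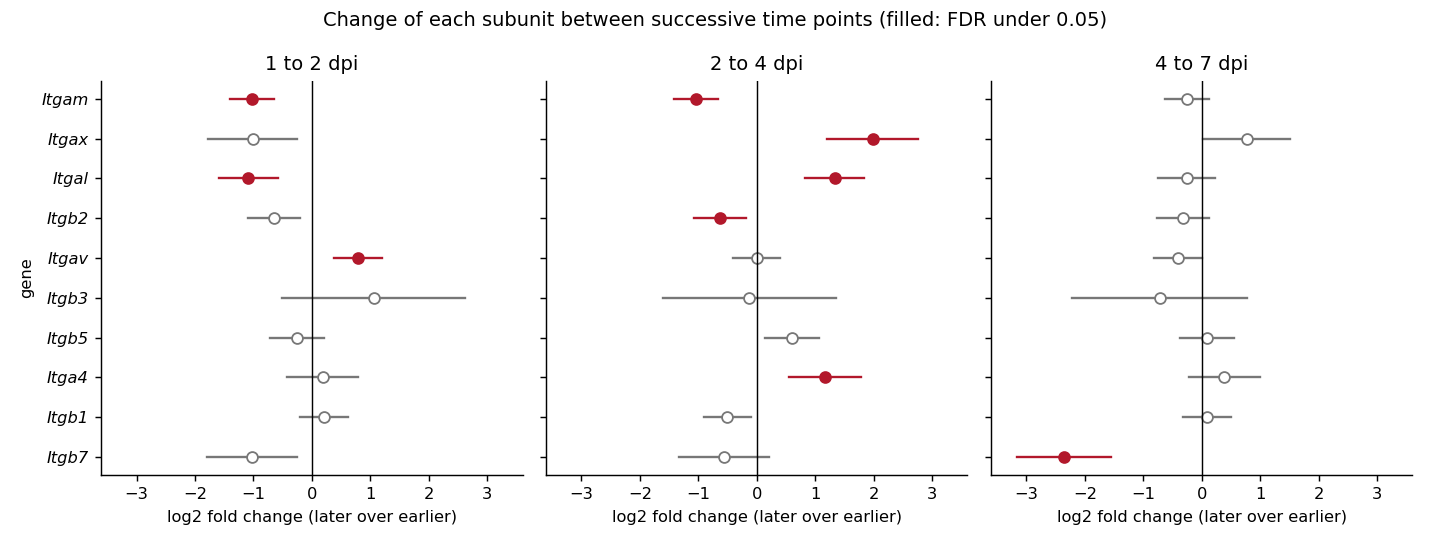
Log2FC of each subunit (horizontal axes, later over earlier time point) in the 3 successive transitions, with lines for the 95% interval and filled red points for genes with an FDR under 0.05. Itgax (1.98), Itgal (1.33) and Itga4 (1.17) pass as higher from 2 to 4 dpi, and Itgb7 alone passes from 4 to 7 dpi (-2.36).

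The shares of 3 alpha chains of beta2 were followed within each library, where they do not depend on scaling between libraries. Itgad, a further alpha chain of beta2, had too few counts to be tested and is not in the sum. Of the summed level per kb of Itgam, Itgal and Itgax, Itgam took 76.3% ± 3.11 and 76.8% ± 3.19 at 1 and 2 dpi, and only 34.8% ± 9.41 and 25.8% ± 6.16 at 4 and 7 dpi (SD, n = 3). Itgax took 9.93% ± 3.05, 10.0% ± 2.87, 35.5% ± 4.78 and 51.1% ± 13.5 at the 4 time points in order. Itgal took 13.8% ± 0.40, 13.2% ± 0.58, 29.7% ± 6.39 and 23.1% ± 7.47 in the same order. The 3 shares are parts of 1 sum in each library, so they are not 3 independent results. Itgal mRNA itself had a log2FC of -0.03 between 1 and 7 dpi (edgeR FDR 0.9325). For each of the 3 shares the libraries of 1 and 2 dpi overlapped, although the CPM of all 3 genes was lower in every 2 dpi library. The break lay between 2 and 4 dpi, where the libraries did not overlap for any of the 3 shares.

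Over the 4 time points, the adjusted p of an exact permutation test of the F statistic, over all 15400 partitions of the 12 libraries into 4 groups of 3, was 0.004 for the Itgam share, 0.00339 for Itgax and 0.0233 for Itgal. Without 4 dpi replicate 2 or 3 the Itgal share no longer passed (adjusted exact permutation p = 0.0685 and 0.0669). These p values were adjusted over 11 ratios and shares, and the smallest raw p possible is 6.49e-05. With the exons that Itgam shares left out, Itgam took 91.1% ± 1.38 at 1 dpi and 52.2% ± 7.72 at 7 dpi, and Itgax 3.74% ± 1.23 and 33.2% ± 11.1 (SD, n = 3). Which alpha chain led at 7 dpi therefore depends on the length used. Itgax was ahead of Itgam in all 3 libraries of 7 dpi with the whole length and behind it in all 3 with the unshared length.

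**Figure D3:**
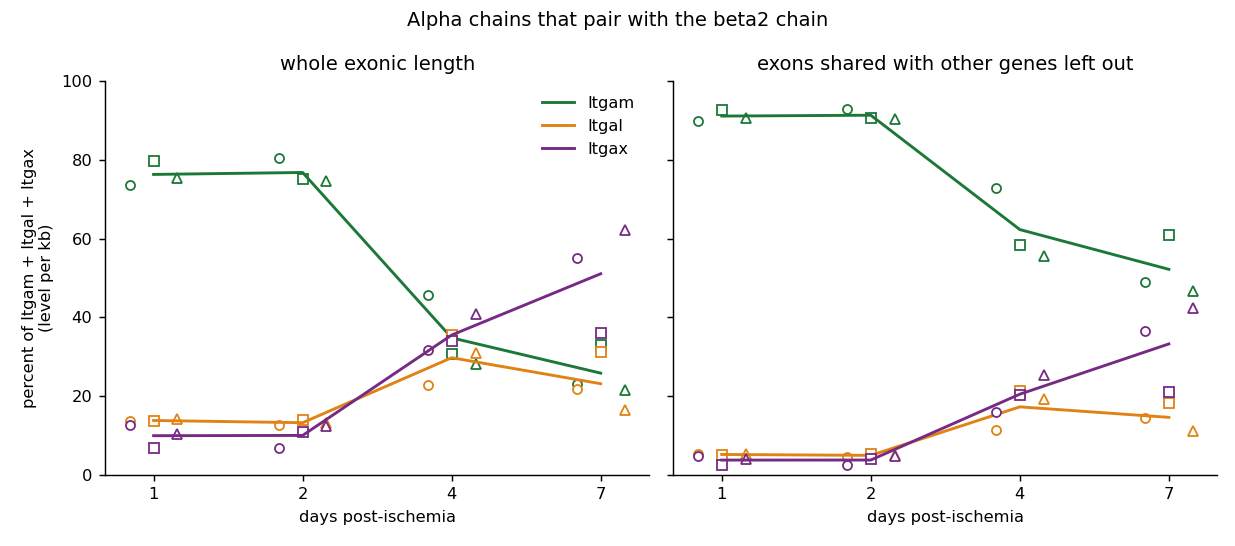
Share in percent (vertical axes) of Itgam, Itgal and Itgax in their summed level per kb against days post-injury, with symbols for libraries (circle, square and triangle for replicates 1, 2 and 3) and lines through the means, for the whole exonic length on the left and without shared exons on the right. The Itgam share falls from 76.3% to 25.8% on the left and from 91.1% to 52.2% on the right, and the break between 2 and 4 dpi is seen in both.

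Set against Itgb2, the alpha chains moved in different ways. The log2 ratio of Itgax to Itgb2, per kb, was -5.56, -6.30 and -5.50 at 1 dpi and -1.75, -3.38 and -2.54 at 7 dpi, a mean ratio 9.41-fold higher at 7 than at 1 dpi. The mean ratio of Itgal to Itgb2 was 2.94-fold higher at 7 dpi. Over the 4 time points, the adjusted exact permutation p was 0.00339 for the first ratio and 0.0069 for the second. The 7 and 1 dpi ratios alone were not tested, since 3 libraries against 3 cannot give an exact p under 0.1. Itgam to Itgb2 had means of -2.80 at 1 dpi and -3.53 at 7 dpi, and its call over the 4 time points (adjusted exact permutation p = 0.0388) was lost without any 1 of the libraries of 2 and 4 dpi, of 1 dpi replicates 2 and 3, and of 7 dpi replicate 2, with p up to 0.137.

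Itgav, the alpha chain of the vitronectin receptors, rose early. It was at 63.7, 68.9 and 69.4 CPM at 1 dpi and at 120, 110 and 119 at 2 dpi. At 4 dpi it was at 138, 87.9 and 123 CPM, and at 7 dpi at 106, 73.2 and 82.8. All 9 libraries after 1 dpi were above those of 1 dpi. The rise from 1 to 2 dpi was 0.79 on the log2 scale (SE 0.19, edgeR FDR 0.0123), a 1.73-fold increase that passed but was below the DEG threshold. Without 2 dpi replicate 1 or replicate 3 the FDR was 0.0531 and 0.0501. From 4 to 7 dpi the log2FC was -0.41 (95% interval -0.82 to -0.01, edgeR FDR 0.122).

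Among the beta partners of Itgav, Itgb5 was abundant and Itgb3 was low. Itgb5 was at 93.8, 84.3 and 78.7 CPM at 1 dpi and at 70.2, 75.2 and 69.4 at 2 dpi. It was at 99.4, 115 and 111 CPM at 4 dpi, above all libraries of both earlier time points, and at 168, 83.5 and 95.6 at 7 dpi, where replicate 1 stood out. The log2FC from 2 to 4 dpi was 0.60 (95% interval 0.14 to 1.07, edgeR FDR 0.064), which did not pass, though it did without any 1 of the 7 dpi libraries (edgeR FDR 0.00933 to 0.0477).

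Itgb3, the beta chain best known from platelets and osteoclasts, had 14 to 103 counts per library. That was 1.89, 0.575 and 0.923 CPM at 1 dpi and 1.502, 2.89 and 2.44 at 2 dpi. It was 3.02, 0.621 and 2.55 CPM at 4 dpi and 0.432, 0.431 and 2.91 at 7 dpi. Replicates of 4 and of 7 dpi were spread more widely than the 4 time point means, and the 95% interval of the change from 1 to 2 dpi ran from -0.51 to 2.61. No change passed with all libraries in the fit, and without 7 dpi replicate 3 the fall from 4 to 7 dpi passed (log2FC -2.25, edgeR FDR 0.026). Of 8 platelet markers, Pf4 and Ppbp averaged 661 and 1150 CPM at 1 dpi, while Gp1bb was at 0 in all 12 libraries and Gp9 in 6.

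The ratio of Itgav to Itgb5 was highest at 2 dpi. In log2 per kb it was -2.15, -1.89 and -1.78 at 1 dpi and -0.82, -1.04 and -0.81 at 2 dpi, with no overlap. The 7 dpi mean was -1.95 ± 0.27, next to -1.94 ± 0.19 at 1 dpi (SD, n = 3), and the adjusted exact permutation p over the 4 time points was 0.0105. Itgav to Itgb1 was at -3.36 ± 0.21 at 1 dpi, -2.29 ± 0.23 at 4 dpi and -2.76 ± 0.06 at 7 dpi (SD, n = 3; adjusted exact permutation p over the 4 time points 0.00286). Itgav to Itgb3 did not pass (adjusted exact permutation p = 0.727).

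Itga4, which pairs with beta1 or beta7, rose from 2 to 4 dpi. It was at 19.4, 39.4 and 51.7 CPM at 1 dpi and at 40.1, 47.8 and 37.8 at 2 dpi. At 4 dpi it was at 69.4, 112 and 101 CPM, and at 7 dpi at 150, 129 and 90.0. The first 2 time points overlapped, and every library of 4 and 7 dpi lay above all 6 of them. Itga4 rose by 1.17 on the log2 scale from 2 to 4 dpi (SE 0.29, edgeR FDR 0.00982), a 2.25-fold increase, and by 1.73 between 1 and 7 dpi (SE 0.29, edgeR FDR 0.000165). The step from 4 to 7 dpi was 0.38 (95% interval -0.22 to 0.99, edgeR FDR 0.334).

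Itgb1, the beta chain with the most alpha partners, passed in no transition. It was at 279, 281 and 230 CPM at 1 dpi and at 311, 304 and 294 at 2 dpi. It was at 246, 195 and 200 CPM at 4 dpi and at 286, 183 and 210 at 7 dpi. The 2 dpi libraries were above all others, yet the log2FC was 0.20 from 1 to 2 dpi (95% interval -0.21 to 0.61) and -0.50 from 2 to 4 dpi (95% interval -0.91 to -0.09, edgeR FDR 0.0779). The latter passed in 4 of 22 alternatives, with DESeq2 (FDR 0.0444), in the fit of the 6 libraries alone (edgeR FDR 0.0217), and without 4 dpi replicate 1 or 7 dpi replicate 2 (edgeR FDR 0.0473 and 0.0482).

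Itgb7 had the widest range of the 10 genes. It was at 178, 153 and 141 CPM at 1 dpi and at 98.2, 70.4 and 62.8 at 2 dpi. It was at 78.3, 48.9 and 29.3 CPM at 4 dpi and at 5.32, 7.92 and 17.4 at 7 dpi. All 1 dpi libraries were above the rest and all 7 dpi libraries below, and those of 2 and 4 dpi overlapped. The log2FC was -1.03 from 1 to 2 dpi (SE 0.36, edgeR FDR 0.075) and -0.56 from 2 to 4 dpi (SE 0.36, edgeR FDR 0.3), neither of which passed. Fitted on the 6 libraries of 1 and 2 dpi alone, the first did pass (edgeR FDR 0.000845). From 4 to 7 dpi Itgb7 fell by 2.36 (SE 0.38, edgeR FDR 0.000923), or 5.12-fold, and between 1 and 7 dpi it was 15.4-fold lower (edgeR FDR 1.77e-06). Among tested genes with a known length, the median log2FC from 4 to 7 dpi was -0.15 in genes with 2399 to 4076 bases, a class that holds Itgb7 (2770 exonic bases). It was 0.23 in those with 6435 or more, a class that holds Itga4 (13978).

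The ratio of Itga4 to Itgb7 therefore turned over, while Itgb1 stayed above Itga4 in every library. Per kb, the log2 ratio of Itga4 to Itgb7 was -5.53, -4.29 and -3.78 at 1 dpi and -3.63, -2.89 and -3.07 at 2 dpi. It was -2.51, -1.14 and -0.55 at 4 dpi and 2.47, 1.68 and 0.04 at 7 dpi. Per kb, Itgb7 exceeded Itga4 in all 9 libraries up to 4 dpi, and in all 3 of 7 dpi Itga4 was the higher, though nearly equal in replicate 3. Where the ratio crosses depends on the lengths used, 13978 exonic bases for Itga4 and 2770 for Itgb7. As divisors, these lengths cancel in the changes of the ratio between time points. The part of the difference between length classes from 4 to 7 dpi, given above, was not tested. The mean ratio was 61.1-fold higher at 7 than at 1 dpi. Over the 4 time points the exact permutation p was 6.49e-05, the smallest that this test can give (0.000714 adjusted). The log2 ratio of Itga4 to Itgb1 was -4.72 ± 0.85 at 1 dpi and -2.67 ± 0.36 at 7 dpi (SD, n = 3), 4.15-fold higher, and the adjusted exact permutation p over the 4 time points was 0.00908. These are ratios of mRNA, and surface pairs were not measured.

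**Figure D4:**
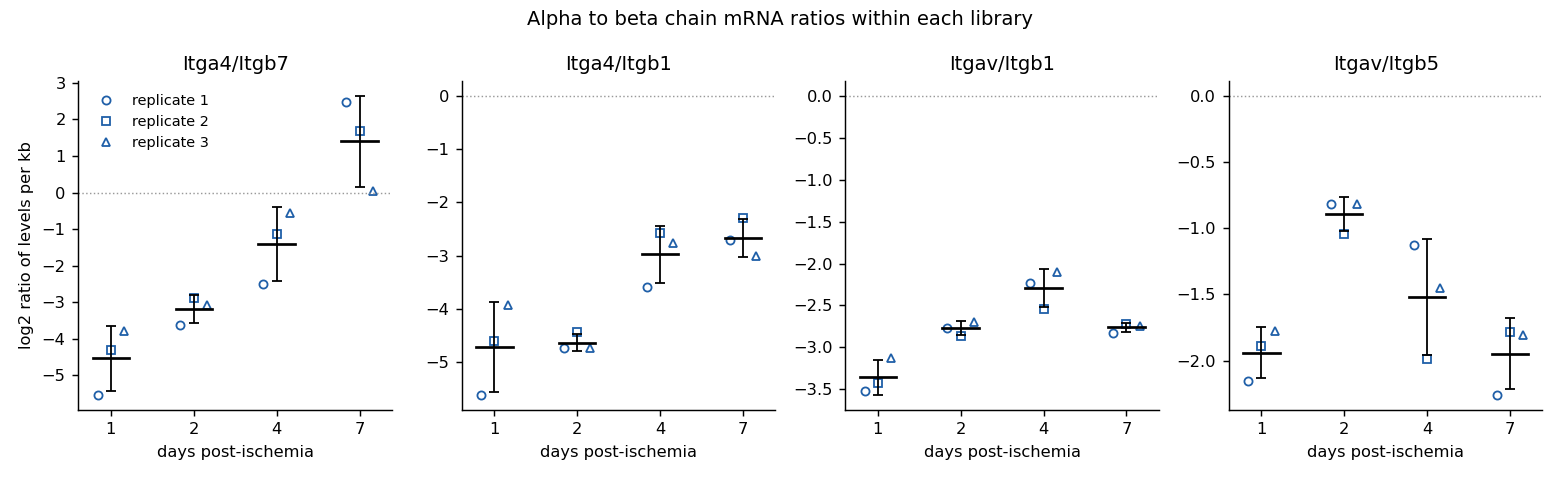
Log2 ratio of alpha to beta chain level per kb (vertical axes) within each library against days post-injury for 4 pairs, with open symbols for libraries and black lines for the mean and SD (n = 3), and a dotted line where both chains are equal. Itga4/Itgb7 crosses the dotted line between 4 and 7 dpi (means -1.40 and 1.40), and Itgav/Itgb5 rises to -0.89 at 2 dpi and returns to -1.95.

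Markers of other cells that carry alpha4 or beta7 chains were read beside these results. Of 8 markers of B and plasma cells, 3 were tested, and their summed level rose from 7.07 to 16.7 CPM at 1 dpi to 68.6 to 200.2 CPM at 4 dpi. Ighm made most of that sum (140 CPM at 7 dpi). Cd79b, a chain of the B cell receptor complex, named after its values were seen, was at 0 in no library and was higher at 7 than at 1 dpi (edgeR FDR 0.000137), at means of 8.03 and 1.80 CPM. Mzb1 was at 0 in all 12 libraries and Pax5 and Jchain in 10. Of 10 markers of T and NK cells, 1 was tested, and their sum was at most 2.27 CPM. Markers of mast cells, basophils and eosinophils summed to at most 6.55 CPM, with 5 to 9 of 11 at 0 in each library. Kit, the stem cell factor receptor of mast cells, averaged 4.14 CPM at 1 dpi and 1.53 at 7 dpi (log2FC -1.45, edgeR FDR 0.015). It fell by 1.94 from 2 to 4 dpi (edgeR FDR 0.00853), where Itgb7 did not pass. From 4 to 7 dpi, where Itgb7 fell, the log2FC of Kit was 0.56 (edgeR FDR 0.394). Siglecf, the other tested gene of that list, passed in no transition, with a log2FC of 0.29 between 1 and 7 dpi (edgeR FDR 0.815). The part of all these cells in the course of Itga4 and Itgb7 was not tested.

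Neutrophils carry Itgam and Itgb2 in large amounts, and their 10 markers summed to 131 to 204 CPM at 1 dpi, 55.2 to 64.6 at 2 dpi, 63.4 to 82.2 at 4 dpi and 43.5 to 52.7 at 7 dpi. Of the 5 tested, 4 passed as lower at 7 than at 1 dpi, beside 23.3% of all genes. The exception was Csf3r, the G-CSF receptor gene, at means of 50.0, 24.3, 55.0 and 47.2 CPM at the 4 time points in order, which rose by 1.18 on the log2 scale from 2 to 4 dpi (edgeR FDR 0.000879) and made most of the sum at 4 and 7 dpi. S100a8 fell from a mean of 22.04 CPM to 0, and Ly6g and Ngp were at 0 in 10 libraries and Camp in all 12. Fibroblast markers rose from a sum of 21.1 to 58.3 CPM at 1 dpi to 424 to 843 at 7 dpi, and muscle markers from 5.45 to 14.3 CPM to 36.9 to 96.8. Endothelial markers summed to 26.9 to 93.5 CPM. The part of these cells in the fall of Itgam and Itgb2 was not tested.

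Replicates did not lie equally near to the preceding time point. In 8 of the 10 members, 4 dpi replicate 1 was the 4 dpi library nearest to the mean log2 CPM of 2 dpi, the exceptions being Itgav and Itgb3. At 7 dpi, replicate 3 was the library nearest to the 4 dpi mean in 6 members, among them Itga4 and Itgb7. Without 4 dpi replicate 1, 6 members passed from 2 to 4 dpi, while the number from 4 to 7 dpi stayed at 1. Without 4 dpi replicate 2 or 7 dpi replicate 2 the number from 4 to 7 dpi was 2, and without 7 dpi replicate 3 it was 3. No member other than Itgb7 had 7 dpi libraries wholly outside those of 4 dpi.

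The genes whose log2 CPM followed a member most closely over the 12 libraries were taken from 4779 other genes whose mean log2 CPM reached 4. For Itgam these were Hif1a (Pearson r = 0.989), Dhx15 (0.986) and Thbs1 (0.985), and for Itgb7 Usb1 (0.986), Rhoa (0.985) and Gapdh (0.98). For Itgax they were H2-D1 (0.938), Limd2 (0.927) and H2-T23 (0.927), and for Itga4 Cabin1 (0.981), Aoah (0.961) and Ighm (0.96). Among the members, r was 0.938 for Itgam with Itgb2, 0.901 for Itgb7 with Itgb2 and -0.947 for Itga4 with Itgb2. All points share the same 12 libraries and time course, so these values describe likeness of shape only.

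Of 16 other integrin subunits, 11 had enough counts to be tested. From 1 to 2 dpi 1 passed as higher and 1 as lower, with a list median log2FC of 0.40. From 2 to 4 dpi it was 2 and 3, with a median of -0.37. From 4 to 7 dpi it was 3 and 0, with a median of 0.70. The shares of all genes in these successive transitions are those given above. Between 1 and 7 dpi 5 passed as higher and 3 as lower, beside 25% and 23.3% of all genes. The list median was then 1.65, where the median of all genes was 0.16. Itga1, a collagen receptor chain, fell by 2.23 and then by 2.40 in the first 2 transitions (edgeR FDR 6.38e-05 and 3.35e-05), and rose by 1.84 from 4 to 7 dpi (edgeR FDR 0.000679). Itga6, the alpha chain of laminin receptors, rose by 2.14 from 1 to 2 dpi (edgeR FDR 0.000339). Itga9, which pairs with beta1 and binds tenascin-C and VCAM-1, rose by 2.13 from 2 to 4 dpi (edgeR FDR 2.74e-05), to a log2 CPM of 5.22. Itga8, another partner of beta1, fell by 3.18 at that step (edgeR FDR 0.000325). Itga7, the laminin receptor chain of muscle, rose from 2 to 4 dpi (edgeR FDR 0.00212) and Itga2 from 4 to 7 dpi (edgeR FDR 0.04), to mean log2 CPM values of 0.66 and -0.81. Of 8 muscle markers, 4 passed as higher and none as lower from 4 to 7 dpi, beside 10.9% and 14.6% of all genes. From 2 to 4 dpi none passed, beside 10.8% and 8.7%. Libraries of Myod1 and Pax7 were higher at 4 dpi without overlap (log2FC 2.11 and 1.71, edgeR FDR 0.219 and 0.292). Myh4, Ckm and Tnnt3 had negative log2FC values at that step, with overlapping libraries. The part of muscle cells in the rises of Itga7 and Itga2 was not tested.

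The intracellular side was read from 37 genes of integrin activation and adaptors, 35 of them tested. From 1 to 2 dpi 3 passed as higher and 7 as lower, with a list median log2FC of -0.28. From 2 to 4 dpi it was 2 and 7 with a median of 0.05, and from 4 to 7 dpi 5 and 6 with a median of -0.16. The shares of all genes in these successive transitions are those given above. Between 1 and 7 dpi 9 passed as higher and 17 as lower, beside 25% and 23.3% of all genes. The list median was then -0.47, where the median of all genes was 0.16. Fgr, a Src family kinase of myeloid cells, fell by 1.32 from 1 to 2 dpi (edgeR FDR 0.000895), and Actn1, which links integrins to actin, rose by 1.78 (edgeR FDR 0.00523). From 2 to 4 dpi the actin crosslinker Flna fell by 1.37, the endocytic adaptor Dab2 by 1.56 and the focal adhesion kinase gene Ptk2 by 1.43 (edgeR FDR 0.000893, 0.00235 and 0.00737). Vcl, which encodes vinculin, fell by 1.10 from 4 to 7 dpi (edgeR FDR 0.00524). Tln2 and Fermt2, relatives of the talin and kindlin genes that leukocytes mainly use, rose by 2.01 and 1.30 at that step (edgeR FDR 0.00669 and 0.0477), to log2 CPM values of 2.25 and 2.04.

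Ligands were measured as mRNA of the same sorted cells. Of 22 genes, 17 were tested. From 1 to 2 dpi none passed as higher and 2 as lower (median log2FC -0.40), from 2 to 4 dpi 5 and 2 (median -0.26), and from 4 to 7 dpi 3 and 2 (median 0.24). The shares of all genes at these steps are those given above. C3, whose fragment binds Mac-1, fell by 2.21 from 1 to 2 dpi (edgeR FDR 6.98e-05) and rose by 1.32 from 4 to 7 dpi (edgeR FDR 0.00268). Thbs1, the matrix protein thrombospondin, fell by 2.50 and then by 1.92 in the first 2 transitions (edgeR FDR 8.14e-05 and 0.00037). Fn1, encoding fibronectin, a ligand of alpha4beta1, fell by 4.40 from 2 to 4 dpi (edgeR FDR 8.11e-06). At the same step F11r, a ligand of LFA-1, rose by 2.17 (edgeR FDR 5.93e-05). Mfge8, a ligand of alphaV integrins that was named after its values were seen, rose by 2.28 (edgeR FDR 0.00152).

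Vcam1, the main cellular ligand of alpha4beta1, rose by 1.42 from 2 to 4 dpi and by 1.89 from 4 to 7 dpi (edgeR FDR 0.00119 and 0.000349), over the days in which Itga4 was also higher. Spp1, encoding the alphaV ligand osteopontin, fell by 2.05 from 4 to 7 dpi (edgeR FDR 0.0182) from a log2 CPM of 11.3. Cdh1, encoding E-cadherin, was lower at 7 than at 4 dpi (edgeR FDR 0.0214) at mean log2 CPM values of -3.46 and -2.01, and the libraries overlapped. Of 8 fibroblast markers, 7 passed as higher and none as lower from 4 to 7 dpi, beside 10.9% and 14.6% of all genes. Vcam1, C3, Tln2 and Fermt2 rose at that step, and the part of fibroblasts in these rises was not tested.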

How the data were processed

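RNA-seq counts of 12 libraries were used. The deposited raw counts per gene were made by the authors with featureCounts of Subread 2.0.1, after trimming (Trim Galore 0.6.6) and alignment with HISAT2 2.2.1 to the GRCm39 genome. The annotation release and whether read pairs were counted as 1 are not given in the sources used here. Of counts from 1 to 20, a median of 83.1% per library were even. Ensembl IDs were matched to GENCODE M21 (GRCm38), which gave symbols for 52081 of 55414 IDs and the exonic lengths, and gene coordinates are therefore left out.

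Changes were tested with edgeR 4.0.16 in R 4.3.3 (filterByExpr, TMM factors 0.652 to 1.70, quasi-likelihood F test, 1 coefficient per time point, Benjamini-Hochberg over 14310 genes). Log2 CPM used a prior count of 2, and ratios per kb a prior count of 1. DESeq2 1.42.0 and limma 3.58.1 were alternatives, as were other filters and scalings, halved counts, and each library left out in turn. The edgeR script was tested on simulated data. The mean chi-square per gene between replicates of the same time point was 14.7 or more. Expected counts were scaled by total counts alone, so differences in composition between replicates add to this value.

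The members and gene lists were chosen with earlier results of these data known, and the lists were written from general knowledge. Named are all members, at most 4 DEGs of smallest P per list and transition, and for the 4 members of largest range the 3 genes of highest correlation. The same-numbered libraries did not deviate together, so numbers were not taken as pairs. CUT&Tag data of the study were not analysed here.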

Additional observations from a re-analysis of the deposited data

How the results depend on the processing

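Of 40 log2FC values of the members, 14 passed, 12 of these passed with the same sign under every alternative run, and those of Itgav from 1 to 2 dpi and Itgb2 from 2 to 4 dpi were lost in at least 1. Of the 26 that did not pass, 11 passed in at least 1 alternative and 7 changed sign in at least 1. The alternative with no threshold on the fold change is the main fit again, so FDR and log2FC values could not differ there. The number of members passing from 1 to 2 dpi was 3, and 5 with no low-count filter, 6 with DESeq2 and 6 in a fit of the 6 libraries alone, with 4 DEGs in place of 2 under each of these 3 settings and 1 without the gene ENSMUSG00000119584. From 4 to 7 dpi it was 1, and 2 with no filter. DEGs among the other genes of the pathway were 6, 13 and 10 in the 3 transitions. From 1 to 2 dpi they were 10 with no filter, 10 with the 6 libraries and 14 with no threshold on the fold change, which gave 21 and 19 in the later transitions. With 1 library left out, passing members ranged from 2 to 5 and DEGs from 1 to 3 from 1 to 2 dpi, from 1 to 3 and from 1 to 2 from 4 to 7 dpi, and DEGs of the pathway from 4 to 10 at that step, with 4 dpi replicate 1 and 7 dpi replicates 1 and 2 behind its lowest values. The cause was not tested.

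The value of Itgal between 1 and 7 dpi (-0.03) changed sign with RLE factors (0.054), CPM above 1 (0.0271), DESeq2 (0.0539), halved counts (0.0701) and without the unnamed gene (0.0677). That of Itgav from 2 to 4 dpi (-0.0062) did so with RLE factors (0.0194), CPM above 1 (0.0163), DESeq2 (0.0195), halved counts (0.0198) and the 6 libraries (0.0234), and that of Itgb3 between 1 and 7 dpi (0.21) with limma-voom (-0.15) and the replicate block (-0.0481). With 1 library left out, they ranged from -0.26 to 0.15, from -0.15 to 0.16 and from -1.31 to 0.82. Sign changes were also seen for Itga4 from 1 to 2 dpi (-0.11 to 0.52), Itgb3 from 2 to 4 dpi (-0.52 to 0.30), Itgb5 (-0.28 to 0.29) and Itgb1 (-0.12 to 0.23) from 4 to 7 dpi, and Itgav to Itgb5 between 1 and 7 dpi (-0.12 to 0.14). The log2 ratio of Itgam to Itgb2 kept its sign (-0.99 to -0.45). The change in the Itgal share was 5.33 to 12.7 percentage points.

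With the replicate block, 3, 4, 1 and 5 members passed from 1 to 2, 2 to 4, 4 to 7 and 1 to 7 dpi, and Itgb2 from 2 to 4 dpi was the call lost (edgeR FDR 0.053). Deviations of same-numbered libraries correlated at -0.13 to 0.13 in 18 pairs of libraries, 1 of them over 0.1. Over all genes, DEGs lower from 2 to 4 dpi were 555, and 972 without 4 dpi replicate 1 and 327 without 4 dpi replicate 2. DEGs lower from 4 to 7 dpi were 744, and 470 with the 6 libraries, 442 without 7 dpi replicate 2 and 1290 without 7 dpi replicate 3. DEGs higher at that step were 1064, and 674 without 4 dpi replicate 1 and 567 without 7 dpi replicate 2. From 1 to 2 dpi, 729 were higher, and 479 with limma-voom, and 568 lower, and 376 and 352 without 2 dpi replicates 2 and 3. With no threshold on the fold change, the lower genes were 1245, 2090 and 3330 from 2 to 4, 4 to 7 and 1 to 7 dpi, against 2009 DEGs in the last. Itgb3 had the lowest counts of the members, 14 to 103, with widely spread replicates, and if mates were counted singly these are fewer fragments.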
